A study of Mus musculus with 8 samples.

Results

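The genes described here belong to the Wnt pathway and were followed in mouse embryonic stem cells (mESCs) after morphine, in RNA and in the repressive histone mark H3K27me3. A gene was included when the name of its locus in the RNA-Seq count table was that of a Wnt ligand, a Frizzled (Fzd) receptor or Lrp5 or Lrp6 co-receptor, a secreted inhibitor of the Dkk or Sfrp families, an R-spondin, Porcn or Wls, a Dvl, Axin, Apc, Gsk3 or Ctnnb1 gene, or Tcf7, Tcf7l1, Tcf7l2, Lef1 or Sp5. This gave 59 genes on 78 of the 44396 rows of the table. Of these genes, 51 had 1 row, and the other 8 (Lef1, Rspo2, Wnt5a, Wnt7b, Wnt9a, Wnt10b, Wnt11 and Wnt16) were listed as 27 single transcripts that count the same reads, so for each of them the transcript with the highest count was used. The cells were mESCs of 1 line carrying an Oct4-GFP reporter, grown without feeder cells on gelatin in a medium with LIF and 2 kinase inhibitors. Control cells received 0.9% NaCl and treated cells 10 µM morphine for 24 h. Each condition had 2 poly(A) RNA-Seq libraries and 2 H3K27me3 ChIP-Seq libraries, 8 in all. The study's methods name the ChIP-Seq replicates biological and the RNA samples duplicates, but do not say whether these were separate cultures, so p-values measure the spread between these libraries, which may be technical. One of the inhibitors listed in the study's medium, CHIR99021, blocks GSK3 and was part of the culture of both conditions.

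Wnt proteins are secreted signals that carry a lipid added by Porcn and leave the cell with the help of Wls. They bind a Fzd receptor together with Lrp5 or Lrp6, and the Dvl proteins pass the signal on. Without a Wnt, a complex of Axin, Apc and GSK3 marks β-catenin (the product of Ctnnb1) for destruction. When the complex is blocked, β-catenin accumulates, enters the nucleus and joins the TCF/LEF factors at their target genes, which include Axin2 and Sp5. In mESCs, inhibition of GSK3 relieves repression by Tcf7l1 and helps to maintain self-renewal, and H3K27me3 is the mark that Polycomb Repressive Complex 2 places at the CpG-rich promoters of many developmental genes.

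The bases just before the first annotated start are printed for 7 genes on which the results below turn. They were read from the RefSeq sequence of GRCm38.p6, which has mm10 coordinates, at the first start of GENCODE vM21, 5′ to 3′ along transcription and 250 bases long. Rspo4 (chr2:151842677-151842926, plus strand) lay under an H3K27me3 peak in all 4 ChIP-Seq libraries and was almost silent. Fzd9 (chr5:135251231-135251480, minus strand) had the highest-ranked promoter peak of the 59 genes in 3 of the 4 libraries. Fzd4 (chr7:89404105-89404354, plus strand) had a promoter peak in both control libraries only and the lowest fold change. Axin2 (chr11:108920099-108920348, plus strand) is a target of the pathway. Wnt6 (chr1:74771642-74771891, plus strand) was the most abundant ligand and Ctnnb1 (chr9:120933150-120933399, plus strand) the most abundant gene of all 59, and neither had a promoter peak. Capitals mark each CpG dinucleotide, of which these windows hold 24, 24, 25, 24, 28 and 35 in the order given.
Rspo4: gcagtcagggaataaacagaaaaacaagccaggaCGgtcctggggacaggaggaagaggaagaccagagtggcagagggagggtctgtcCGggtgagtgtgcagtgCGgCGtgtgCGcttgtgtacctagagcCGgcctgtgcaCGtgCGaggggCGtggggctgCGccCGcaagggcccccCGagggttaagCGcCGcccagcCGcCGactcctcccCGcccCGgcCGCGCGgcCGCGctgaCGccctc
Fzd9: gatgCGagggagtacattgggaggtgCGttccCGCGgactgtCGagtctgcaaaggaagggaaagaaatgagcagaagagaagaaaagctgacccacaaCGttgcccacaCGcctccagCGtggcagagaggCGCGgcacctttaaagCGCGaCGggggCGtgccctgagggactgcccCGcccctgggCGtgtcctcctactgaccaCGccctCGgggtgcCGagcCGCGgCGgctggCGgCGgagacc
Fzd4: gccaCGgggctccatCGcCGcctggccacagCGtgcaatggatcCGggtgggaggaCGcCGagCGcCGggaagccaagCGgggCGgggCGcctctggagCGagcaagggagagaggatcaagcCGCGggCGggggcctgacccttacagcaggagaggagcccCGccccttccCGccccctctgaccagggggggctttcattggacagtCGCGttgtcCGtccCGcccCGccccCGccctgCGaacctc
Axin2: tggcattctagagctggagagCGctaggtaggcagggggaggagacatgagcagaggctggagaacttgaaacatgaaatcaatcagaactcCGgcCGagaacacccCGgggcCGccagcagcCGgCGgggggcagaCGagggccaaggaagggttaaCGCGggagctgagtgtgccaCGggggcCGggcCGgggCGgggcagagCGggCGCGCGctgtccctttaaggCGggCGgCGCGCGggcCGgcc
Wnt6: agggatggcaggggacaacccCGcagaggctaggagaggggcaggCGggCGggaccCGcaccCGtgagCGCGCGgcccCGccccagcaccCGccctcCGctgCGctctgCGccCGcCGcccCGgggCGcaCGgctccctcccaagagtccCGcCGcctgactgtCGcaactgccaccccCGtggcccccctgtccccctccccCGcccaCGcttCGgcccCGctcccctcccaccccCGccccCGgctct
Ctnnb1: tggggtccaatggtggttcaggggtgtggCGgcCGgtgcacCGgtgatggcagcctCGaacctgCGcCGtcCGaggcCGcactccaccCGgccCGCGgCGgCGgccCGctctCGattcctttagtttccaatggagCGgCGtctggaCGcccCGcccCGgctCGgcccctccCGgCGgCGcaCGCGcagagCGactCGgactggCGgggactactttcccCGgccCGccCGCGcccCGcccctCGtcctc
The window of Sp5 (chr2:70474673-70474922, plus strand) is shown because it holds the TCF/LEF motif, which is marked in capitals, and only 6 CpGs.
Sp5: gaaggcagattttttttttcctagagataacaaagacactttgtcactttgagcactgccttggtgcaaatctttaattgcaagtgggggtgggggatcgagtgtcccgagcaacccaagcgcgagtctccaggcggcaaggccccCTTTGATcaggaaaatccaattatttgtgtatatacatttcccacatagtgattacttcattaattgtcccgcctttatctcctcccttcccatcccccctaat

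CpGs were dense at most of these promoters. Over the 300 bases from 250 before to 50 after the first start, the ratio of observed to expected CpGs had a median of 0.753 over the 59 genes and of 0.552 over 21934 protein-coding genes. The receptors had a median ratio of 0.789, the relay and destruction complex of 0.802 and the ligands of 0.744, while the secreted inhibitors were lower at 0.557. Ctnnb1 (1.08) was near the top of the range of 0.227 to 1.15, and Sp5 was low at 0.403. The TCF/LEF motif was searched as CTTTGAT and CTTTGAA on both strands, which cannot overlap on one strand. It was found in 5 of the 59 windows, or 8.47%, against 8.16% of the windows of all protein-coding genes. None of the 8 genes with a promoter peak in all 4 libraries held it, where 5.24% of the protein-coding genes with such peaks did.

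In the RNA-Seq, the total count was 25081266 to 29531096 per library. Levels between genes are compared as RPKM, which is the CPM (the count scaled to the library size, with sizes adjusted by the trimmed mean of M-values, TMM) divided by the exon length of the locus in kb, and levels between libraries as CPM. A count of 3, taken as the floor for a gene listed at 0, was worth 0.102 to 0.119 CPM. The floor covers counting error only. Each ± after a log2 fold change is the SE of the edgeR fit, which includes the spread between libraries. The markers of embryonic stem cells fitted the label, with Pou5f1 at 1183 to 1507 CPM in the 4 libraries and the 8 markers summing to 4507 to 4578 CPM in control and 4568 to 4705 CPM after morphine. The 6 fibroblast markers summed to 10.3 to 12.5 CPM and Dcn was at 0 in every library. The 4 neuroectoderm markers summed to 124 and 129 CPM in control and 137 and 130 CPM after morphine, with Tubb3 at 103 to 117 CPM. The 4 trophoblast markers summed to 15.6 to 17.4 CPM and the 4 of mesoderm and primitive streak to 4.01 to 5.42 CPM. The 6 primitive endoderm markers summed to 21.3 and 22.5 CPM in control and 22.8 and 24.9 CPM after morphine, and their part in the results was not tested. Across 20335 tested loci with a GC content, the log2 fold change between conditions was higher for loci with a higher GC content of the exons (Spearman 0.485, a description over loci of the same 4 libraries). For the genes described below, log2 fold changes are therefore also given after smooth trends with exon length and GC content were removed from every library, as the value with the trends removed. That step also takes out any difference between the conditions that follows length or GC content, whatever its origin.

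None of the Wnt pathway genes was called between control and morphine in the edgeR quasi-likelihood test at an FDR of 0.05. The test covered 42 of the 59 genes, and the other 17 had too few reads to be tested. Over all 20350 tested loci, 1.52% were called. At an unadjusted p under 0.05 the same test gave 13 of the 42 genes (31.0%), against 20.5% of all loci. The edgeR exact and likelihood ratio tests called 0 of the 42 as well, and DESeq2 called 1, Sfrp1, of the 14 genes to which it gave an adjusted p. Log2 fold changes (morphine minus control) ran from -0.53 to 0.73 with a median of 0.05, and the median over all loci was 0.00. They were above 0 in 27 genes and below 0 in 15. Wnt10a passed the count filter through morphine alone, which fixed its direction, and without it 26 of 41 were above 0. With the trends removed the median was -0.01. In CPM, the control and morphine libraries did not overlap and morphine was higher for 12 of the other 41 genes (29.3%), where 26.0% of all loci did so. Morphine was lower without overlap for 11 of the 41 (26.8%), against 26.8% of all loci.

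**Figure D1:**
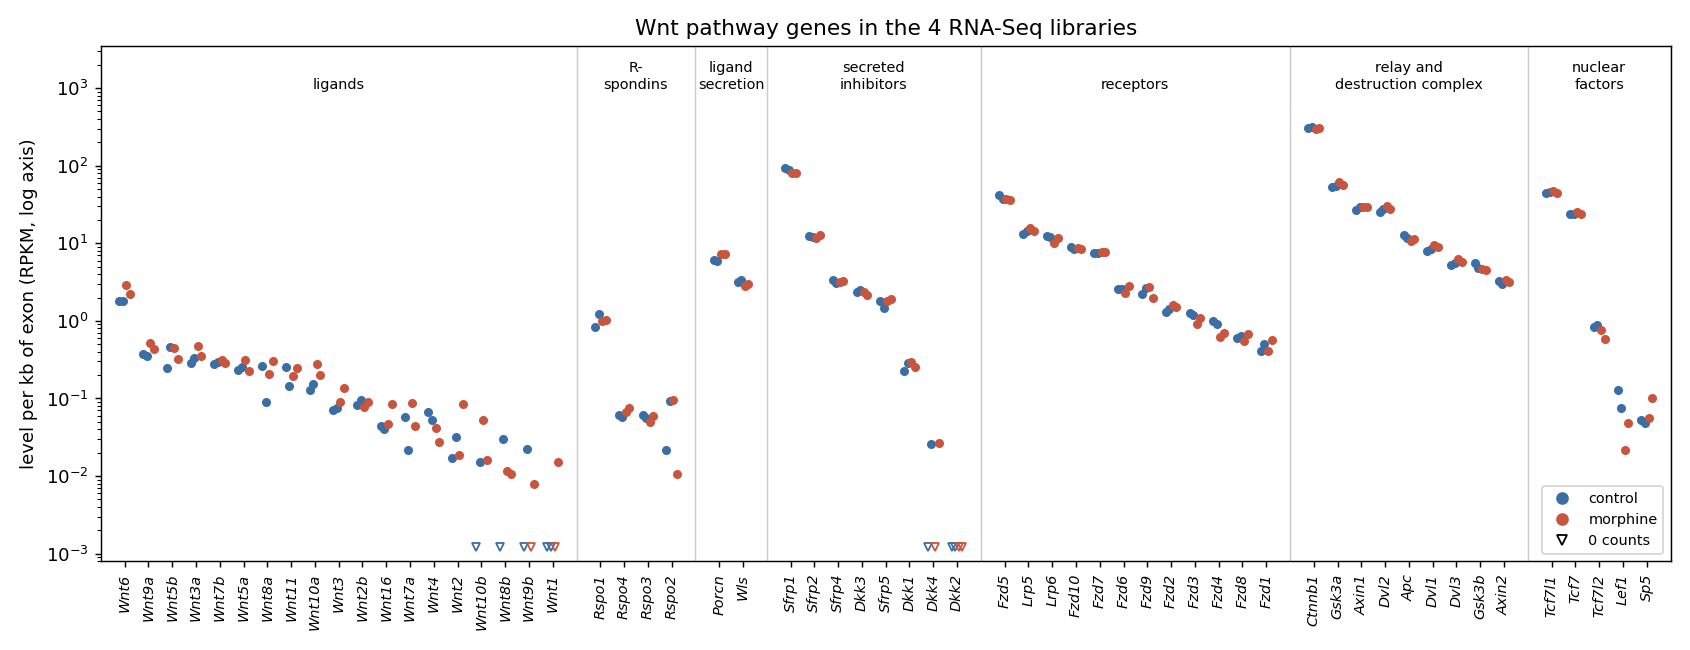
Level of each of the 59 Wnt pathway genes in RPKM on a log axis, by role, with 1 point per RNA-Seq library (blue, control; red, morphine) and open triangles for libraries with 0 counts. Most ligands lie below 1 RPKM, while Ctnnb1 is highest, at a mean of 315 in control and 303 after morphine, and the points of the conditions sit close together for the abundant genes.

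The ligands were mostly of low abundance. The median level of the 19 Wnt genes was 0.0930 RPKM, and only Wnt6 passed 1 RPKM. Wnt6, a ligand known from epithelial and endoderm development, had 3.71 and 3.70 CPM in control and 5.97 and 4.58 CPM after morphine. Both morphine libraries were higher and the pairs did not overlap. Its log2 fold change was 0.50 ± 0.16 (SE) with an FDR of 0.116 in edgeR, and 0.31 with the trends removed. Wnt10a, the neighbour of Wnt6 on chromosome 1 (chr1:74792019-74804176, beside Wnt6 at chr1:74771892-74785319, mm10), had counts of 7 and 9 in control and 14 and 11 after morphine. Its log2 fold change of 0.73 ± 0.44 had an edgeR FDR of 0.384, and was 0.54 with the trends removed. Wnt10a was the one gene that passed the count filter through its morphine libraries alone, so a fold change above 0 was fixed by the filter. Wnt3a, a ligand that activates β-catenin in the primitive streak, had 0.801 and 0.917 CPM in control and 1.30 and 0.959 CPM after morphine. Wnt9a had 1.24 and 1.15 CPM in control and 1.74 and 1.42 CPM after morphine. Both genes lie side by side on chromosome 11. The pairs of Wnt3a and Wnt9a did not overlap either, and their log2 fold changes of 0.39 ± 0.29 and 0.40 ± 0.25 had edgeR FDRs of 0.495 and 0.393, and were 0.25 and 0.27 with the trends removed. Wnt8a varied more between replicates than between conditions, with counts of 11 and 4 in control and 8 and 13 after morphine, and its log2 fold change was 0.56 ± 0.54 (0.43 with the trends removed).

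Of the 9 tested ligands, Wnt10a is left out of these counts because the filter fixed its direction. The log2 fold changes of the other 8 were above 0, with a median of 0.28, and 6 of the 8 were above 0 with the trends removed, with a median of 0.21. Leaving out 1 library at a time left 5 to 7 of the 8 above 0, and the lowest number was without morphine replicate 1. The median exon GC content was 56.3% over all 19 ligands. Of the 8, Wnt5a had 47.3% GC and the others 56.1 to 61.4%. Among all loci with at least 55% GC, 80.4% had a log2 fold change above 0. Summed over the 19 ligands, the level was 10.8 and 11.2 CPM in control and 15.3 and 12.8 CPM after morphine (11.03 ± 0.256 and 14.1 ± 1.78, mean ± SD, n = 2 each). This sum includes Wnt10a and was not corrected for the trends. Wnt6 alone gave a mean of 3.71 CPM of it in control and 5.28 CPM after morphine. With 2 libraries against 2, the smallest p of a two-sided exact permutation test is 0.33, so that test cannot pass 0.05 here. The other 10 ligands were not tested. They had at most 12 counts in a library, and Wnt1 was at 0 in 3 libraries with 1 count in the other.

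Neither gene of ligand secretion passed the test. Porcn, the enzyme that adds the lipid, had 17.8 and 17.1 CPM in control and 21.3 and 20.8 CPM after morphine, which did not overlap. This gave a log2 fold change of 0.27 ± 0.08 with an FDR of 0.0829 in edgeR, and 0.16 with the trends removed. Wls, the carrier, had means of 16.1 ± 0.532 CPM in control and 14.4 ± 0.450 CPM after morphine (SD, n = 2 each). Its log2 fold change of -0.16 ± 0.08 became -0.00 with the trends removed.

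Of the R-spondins, which strengthen Wnt signals at the receptor, only Rspo1 was tested. It had 1.53 and 2.24 CPM in control and 1.82 and 1.88 CPM after morphine, with a log2 fold change of -0.03 ± 0.24 that was -0.21 with the trends removed. Rspo2, Rspo3 and Rspo4 had 1 to 9 counts per library.

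**Figure D2:**
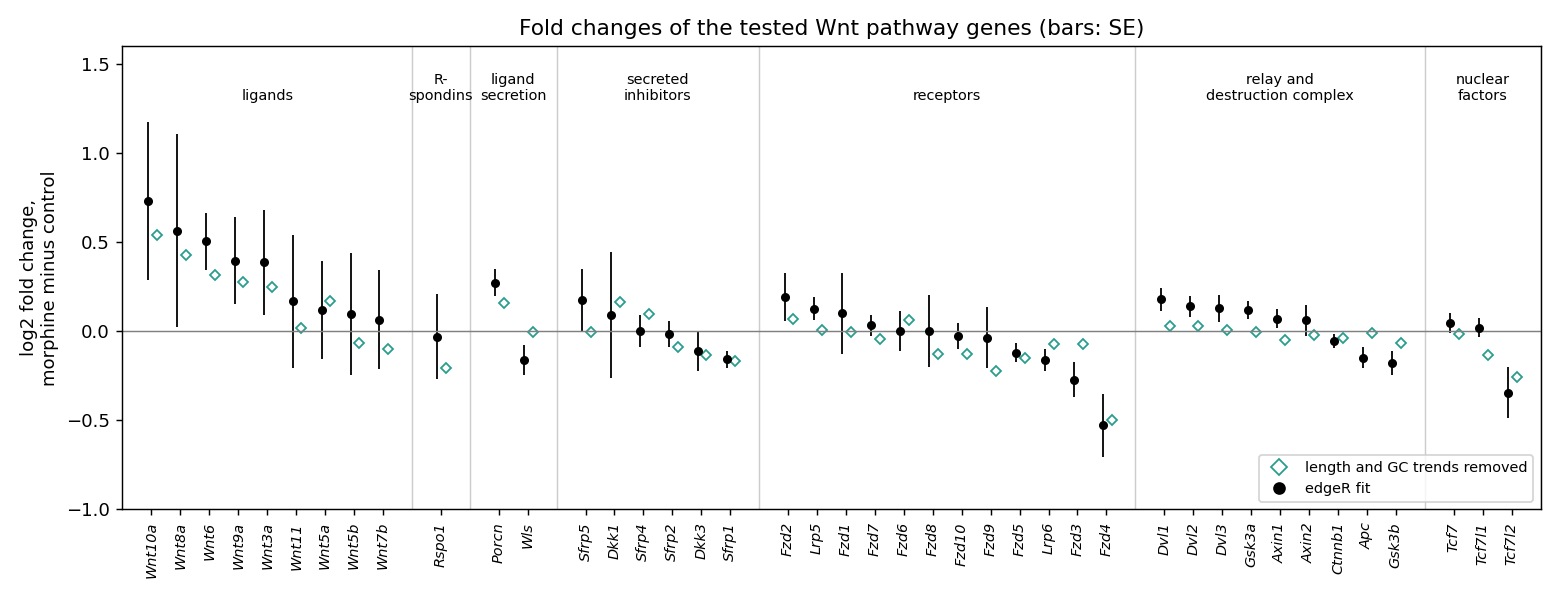
Log2 fold change (morphine minus control) of the 42 tested genes by role, from the edgeR fit (black points with SE bars) and with length and GC trends removed (open diamonds). Wnt10a, Wnt8a and Wnt6 are highest, Wnt8a and Wnt10a have the widest bars, Fzd4 is lowest at -0.53, and most genes of the relay and destruction complex come closer to 0 when the trends are removed.

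Among the secreted inhibitors, Sfrp1 dominated. Sfrp1, which binds Wnt proteins outside the cell, was the second most abundant gene of the 59 in RPKM (85.2 over all libraries). Its level was 406 and 379.5 CPM in control and 348 and 356 CPM after morphine, and the pairs did not overlap. The log2 fold change was -0.16 ± 0.05 with an FDR of 0.0942 in edgeR and -0.17 with the trends removed, and Sfrp1 passed the FDR of 0.05 in 4 alternative analyses, but had an FDR of 0.486 without control replicate 1 and 0.508 without morphine replicate 1. Sfrp2, Sfrp4 and Sfrp5 ran from 1.64 to 12.3 RPKM in control, and their libraries overlapped between conditions. Dkk3 had a log2 fold change of -0.11 ± 0.11 (-0.13 with the trends removed). Dkk1, which blocks Lrp5 and Lrp6, had 14 to 19 counts in each library, Dkk4 had at most 1 count, and Dkk2 was at 0 in all 4 libraries.

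All 12 receptors and co-receptors were tested. Fzd5 was the main Fzd gene, with 288 and 259 CPM in control and 255 and 248.7 CPM after morphine, lower in both. Its level in RPKM was 39.6 in control, above Lrp5 (13.7), Lrp6 (12.2), Fzd10 (8.72) and Fzd7 (7.53). The log2 fold change of Fzd5 was -0.12 ± 0.05 (edgeR FDR 0.231), and -0.15 with the trends removed. Fzd4, which is also the receptor of Norrin, was lower after morphine in both libraries, with 3.68 and 3.40 CPM in control and 2.29 and 2.59 CPM after morphine. It had the lowest log2 fold change of all 42 genes, -0.53 ± 0.18, with an edgeR p of 0.0108 and an FDR of 0.125. With the trends removed it was -0.50. Fzd3, a receptor known from planar polarity and axon guidance, had 15.9 and 15.2 CPM in control and 11.7 and 14.0 CPM after morphine. Its log2 fold change of -0.27 ± 0.10 shrank to -0.07 with the trends removed, and its exons had the lowest GC content of the tested genes (40.3%). Fzd2 had 4.70 and 5.13 CPM in control and 5.77 and 5.47 CPM after morphine, which did not overlap, with a log2 fold change of 0.19 ± 0.13 (edgeR FDR 0.450) that was 0.07 with the trends removed. Fzd7, a receptor prominent in mESCs, had 36.2 CPM in both control libraries and 36.9 and 37.1 CPM after morphine, a log2 fold change of 0.03 ± 0.06 (-0.05 with the trends removed).

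The co-receptors Lrp5 and Lrp6 had log2 fold changes of opposite sign. Lrp6 had 121 and 118 CPM in control and 99.99 and 113 CPM after morphine, a log2 fold change of -0.16 ± 0.06 (edgeR FDR 0.165). Lrp5 had 78.4 and 86.1 CPM in control and 94.1 and 85.5 CPM after morphine, which overlapped, and a log2 fold change of 0.13 ± 0.06 (edgeR FDR 0.299). With the trends removed, the log2 fold changes were -0.07 for Lrp6 and 0.01 for Lrp5. The exons of Lrp5 had 57.7% GC and those of Lrp6 46.4%.

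The relay and destruction complex held Ctnnb1, the most abundant gene of the pathway. Ctnnb1 had 34980 and 38410 counts in control and 31046 and 35390 counts after morphine. This was 1273 and 1305 CPM in control and 1227 and 1257 CPM after morphine, with a log2 fold change of -0.05 ± 0.04 (edgeR FDR 0.482) and of -0.04 with the trends removed. At 315 and 303 RPKM in the conditions, Ctnnb1 stood above every other gene here. Gsk3a followed with 363 and 366 CPM in control and 414 and 379 CPM after morphine, but its row also spans the neighbouring gene Erf, so it is not the level of Gsk3a alone. The scaffold Axin1 had 100.9 and 109.5 CPM in control and 111 and 110.2 CPM after morphine. Apc, the second scaffold, had 164 and 152 CPM in control and 137 and 148 CPM after morphine, with a log2 fold change of -0.15 ± 0.06 (edgeR FDR 0.172) that came to -0.01 with the trends removed.

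The Dvl genes were higher and Gsk3b lower in both morphine libraries. Dvl1 had 41.0 and 43.1 CPM in control and 49.2 and 46.1 CPM after morphine (log2 fold change 0.18 ± 0.06, edgeR FDR 0.143). Dvl2, the most abundant Dvl gene, had 135 and 147 CPM in control and 162 and 150.1 CPM after morphine (log2 fold change 0.14 ± 0.06, edgeR FDR 0.201). It shares 980 bp of exon with Acadvl on the other strand. Dvl3 had 26.9 and 28.9 CPM in control and 32.0 and 29.1 CPM after morphine. Gsk3b, a kinase of the destruction complex, had 53.8 and 47.3 CPM in control and 44.9 and 44.4 CPM after morphine (log2 fold change -0.18 ± 0.07, edgeR FDR 0.179). With the trends removed these came to 0.03, 0.03 and 0.01 for the Dvl genes and -0.06 for Gsk3b. The 9 genes of the group summed to 2173 and 2212 CPM in control and 2191 and 2178 CPM after morphine, which overlapped.

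Of the target Axin2 and the nuclear factors, the 4 that could be tested were not called. Axin2, which is both a target of β-catenin and part of the complex that destroys it, had 14.3 and 13.1 CPM in control and 14.7 and 13.8 CPM after morphine. Its log2 fold change was 0.06 ± 0.09 (edgeR FDR 0.754) and -0.02 with the trends removed. Sp5, another target, had 3 and 3 counts in control and 3 and 6 after morphine, near the floor. Lef1, which acts with β-catenin in differentiating cells, had 13 and 8 counts in control and 2 and 5 after morphine and was not tested. The morphine counts of Lef1 were lower than both control counts, but its transcripts share up to 1098 bp of exon with BC051212 on the other strand. Tcf7l1, the repressor of pluripotency genes, was the most abundant TCF factor, with 128 and 134 CPM in control and 136 and 129.6 CPM after morphine, and its log2 fold change was 0.02 ± 0.05 (-0.14 with the trends removed). Tcf7 had 69.5 and 70.6 CPM in control and 74.2 and 70.6 CPM after morphine. Tcf7l2 was lower in both morphine libraries, with 6.81 and 7.07 CPM in control and 6.25 and 4.72 CPM after morphine (log2 fold change -0.34 ± 0.14, edgeR FDR 0.206, and -0.26 with the trends removed).

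**Figure D3:**
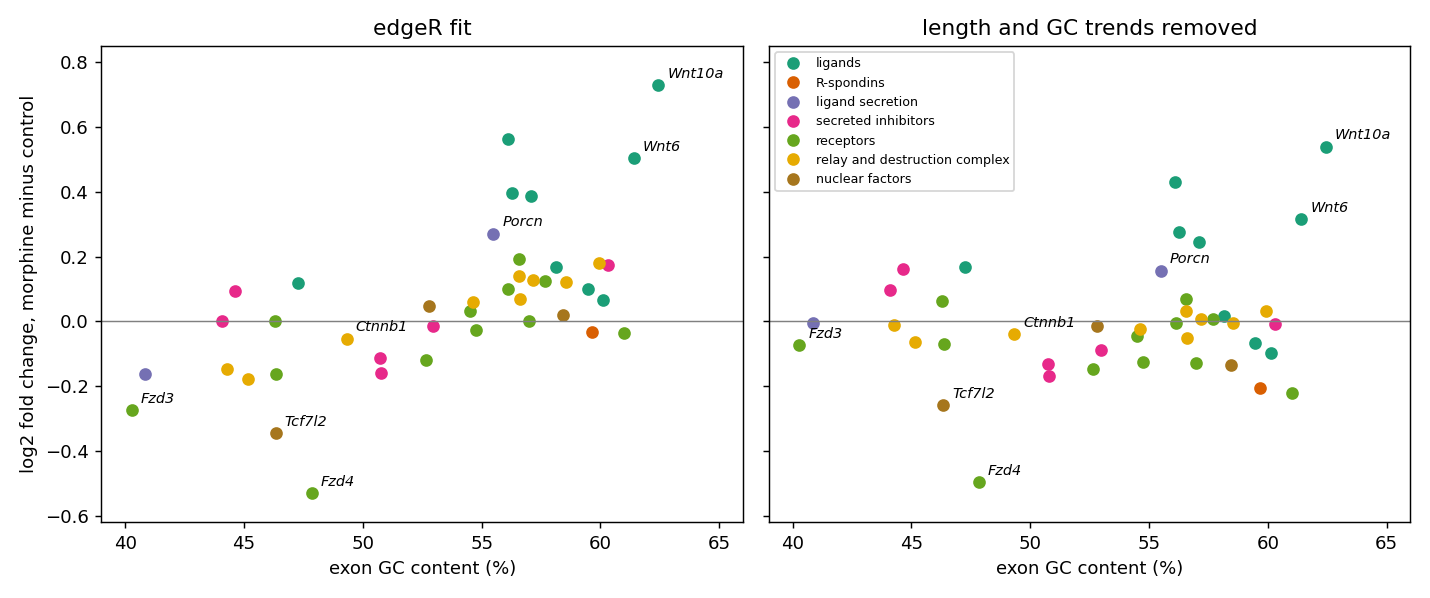
Log2 fold change (morphine minus control) of the 42 tested genes against the GC content of their exons in percent, coloured by role, from the edgeR fit (left) and with length and GC trends removed (right). Genes with at least 55% GC lie above 0 in 19 of 21 cases on the left, leaving out Wnt10a, and Fzd4 stays lowest on both sides.

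The fold changes of the pathway genes are set beside those of all loci by the GC content of the exons. Leaving out Wnt10a, 19 of the 21 tested genes with an exon GC content of at least 55% had a log2 fold change above 0, with a median of 0.13, and over all loci in that range 80.4% were above 0, with a median of 0.14. Of the 12 genes below 50% GC, 4 had a log2 fold change above 0, against 30.1% of all such loci, and the median was -0.16 against -0.09. Between these, at 50 to 55% GC, 3 of 8 genes were above 0, against 63.9% of all such loci, with a median of -0.02 against 0.05. Over the 41 genes, which share the same 4 libraries, the Spearman correlation of log2 fold change with GC content was 0.606. With the trends removed it was 0.040, but that step takes out the GC trend of all loci, these genes included. A fall of the correlation was therefore built in and says nothing about its origin. What links base composition to the difference between the libraries was not tested.

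Other genes of the pathway were looked up on 6 lists holding 63 genes, of which 55 were tested, 2 were called higher and 1 lower, and 1.52% of all loci were called. No call was made among the 9 tested of 15 surface regulators, the 13 intracellular regulators or the 9 planar polarity genes. Among 12 nuclear cofactors, Crebbp, an acetyltransferase that works with β-catenin and many other factors, fell from 68.9 and 59.5 CPM to 49.7 and 50.9 CPM (log2 fold change -0.35 ± 0.07, edgeR FDR 0.0419). The call of Crebbp was lost without control replicate 1 (FDR 0.113), without morphine replicate 1 (FDR 0.387) and without morphine replicate 2 (FDR 0.0644). Among 14 known targets of β-catenin and TCF, Myc rose from 47.3 and 47.3 CPM to 57.6 and 55.5 CPM (log2 fold change 0.26 ± 0.06, edgeR FDR 0.04996). Without control replicate 1 the FDR of Myc was 0.110, without morphine replicate 1 it was 0.405 and without morphine replicate 2 it was 0.0548. Among 5 genes that Tcf7l1 holds down, Klf2 rose from 149 and 143 CPM to 188 and 179 CPM (log2 fold change 0.33 ± 0.05, edgeR FDR 0.0151). Its FDR was 0.205 without morphine replicate 1. With the trends removed, the log2 fold changes of Myc and Klf2 were 0.17 (FDR 0.162) and 0.14 (FDR 0.192), and that of Crebbp was -0.39 (FDR 0.0476). The other 4 genes held down by Tcf7l1, among them Nanog and Esrrb, were not called.

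In the ChIP-Seq, peaks of H3K27me3 were assigned to a gene when they reached within 1 kb of any of its annotated starts. The peak lists hold 8681 to 13778 peaks per library, called by the authors in each library, and do not give the reads behind a peak. Of the 59 genes, 12 and 14 had a promoter peak in the control replicates, and 14 and 13 in those of morphine. These shares of 20.3, 23.7, 23.7 and 22.0% stood beside 16.3, 16.9, 16.8 and 17.4% of all protein-coding genes in the same libraries. A binding site (BS), meaning a region with a peak from both replicates, was found at 10 of the 59 genes in control (16.9%) and at 9 after morphine (15.3%), and 14.4% of 21938 protein-coding genes had one in each condition. The difference between the conditions in this count is 1 gene, smaller than that between the control replicates. The share of the promoter lying under peaks, averaged over the 59 genes, was 10.76 and 12.99% in the control replicates. After morphine it was 16.14 and 13.31%, higher in both, though replicate 2 was close to control replicate 2. Peaks covered the first start itself at 3 and 5 genes in control and at 8 and 5 after morphine. These differences in extent were not tested.

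Most of the pathway carried no promoter peak. There was none in any library at 38 of the 59 genes (64.4%), against 77.1% of all protein-coding genes. They included 16 of the 19 ligands, Porcn, Wls, Sfrp1, Fzd5, Sp5, Lef1 and all of the relay and destruction complex except Axin2. The nearest peak to Ctnnb1 was 61995 to 155115 bp from its starts, and the nearest to Sp5 28960 to 34522 bp. Dvl1 had peaks 3759 to 4235 bp from its starts in 3 libraries, outside the promoter. Wnt3a and Wnt9a, which are neighbours on chromosome 11, had a peak 4604 and 5939 bp from their starts in control replicate 1, while in the other libraries the nearest peak was at least 35330 and 19152 bp away.

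**Figure D4:**
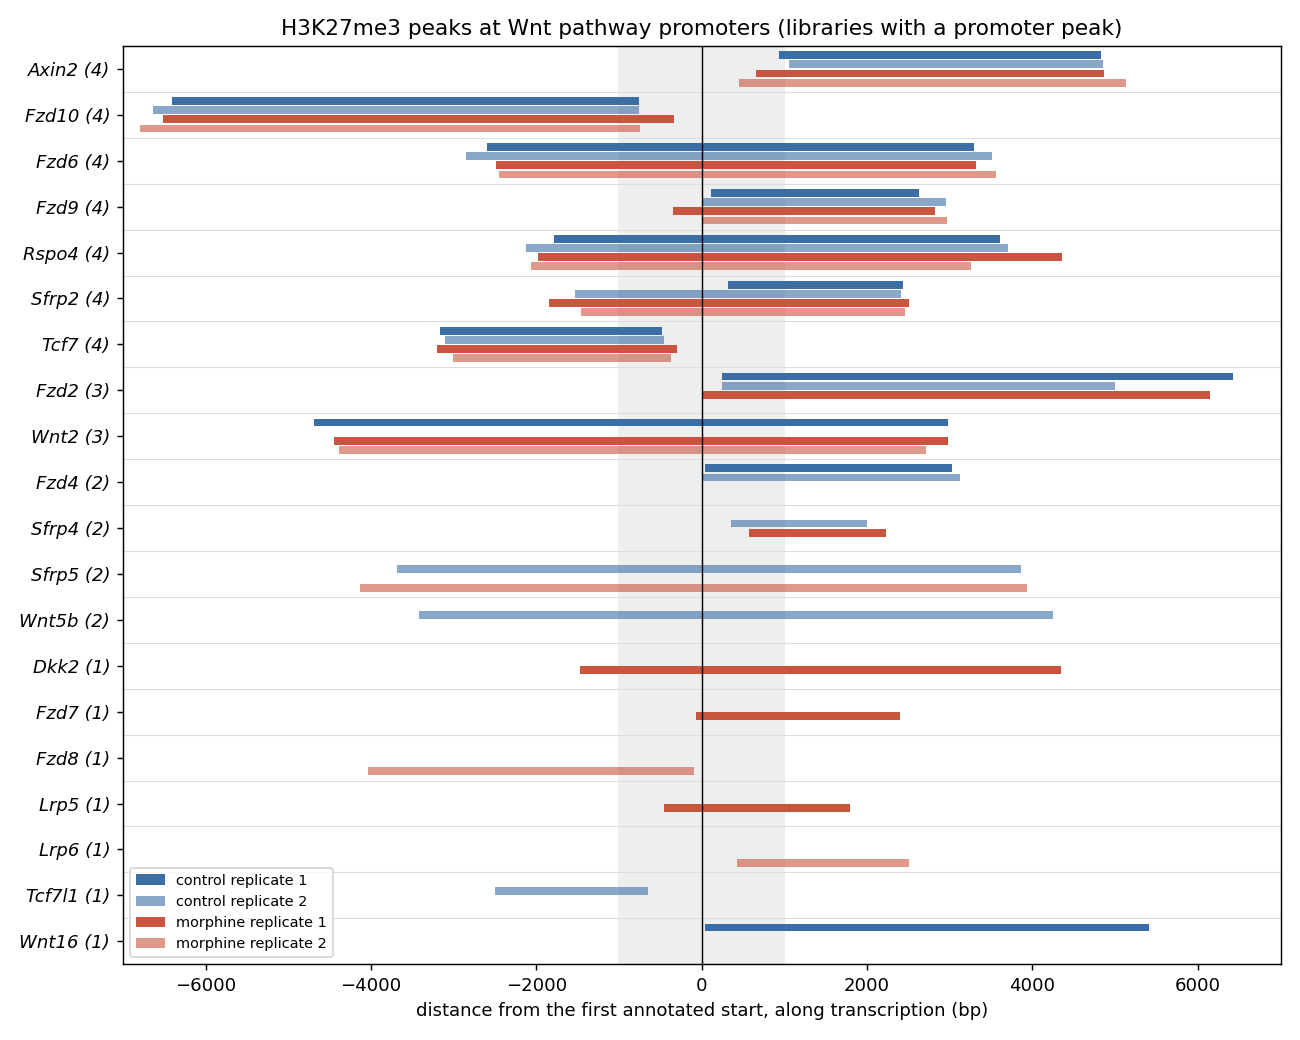
H3K27me3 peaks near the first annotated start of the 20 genes with a peak there, drawn to scale along transcription in bp, with 4 bars per gene for the 4 libraries (blue, control; red, morphine; darker, replicate 1) and the 1 kb promoter in grey. Numbers count libraries with a promoter peak, and Fzd4 has bars for both control libraries and none for morphine. Tcf7l2 is left out because its peaks lie at a later start. The morphine peak counted for Wnt5b also lies at a later start and is not drawn.

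A promoter peak was present in all 4 libraries at 8 genes (13.6%), against 11.7% of all protein-coding genes. These were 3 receptors (Fzd6, Fzd9 and Fzd10), 2 TCF factors (Tcf7 and Tcf7l2), Axin2, Rspo4 and Sfrp2. Their peaks lay differently around the start. At Rspo4 the peaks covered the start and ran from between -2122 and -1789 bp to between 3262 and 4358 bp, with negative positions before the start. At Fzd6 they also covered the start in all 4 libraries. At Fzd9, a single-exon receptor gene, the peaks began 10, 11 and 109 bp after the start in 3 libraries and at -349 bp, which is before it, in morphine replicate 1. They ranked above 97.7 to 99.2% of the peaks of their own library. At Axin2 the peaks began 454 to 1055 bp after the first start, leaving the printed window free. At Tcf7 and Fzd10 they lay before the start, ending at -475 to -297 bp and at -761 to -339 bp. The peaks of Tcf7l2 began 150729 to 151472 bp inside the gene, at a later start of shorter transcripts. At Sfrp2 control replicate 1 stood apart with a peak that began 324 bp after the start where the other 3 libraries covered it.

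Peaks that differed between libraries were found at 13 genes. Fzd4 was the one gene with a promoter peak in both control libraries and in neither morphine library, which is 1.69% of the 59 genes, against 0.588% of all protein-coding genes. Its control peaks began 40 and 9 bp after the start, were 2994 and 3114 bp wide and ranked above 14.3 and 72.8% of the peaks in their libraries, so the first was among the weaker ones. The nearest morphine peaks lay 9265 and 9280 bp away. The peak of control replicate 1 had a score of 57.0, little above the lowest score in the lists of 50, so at a score of at least 100 Fzd4 kept a peak in control replicate 2 alone. Fzd4 was also the gene with the lowest log2 fold change in RNA, as given above. The reverse pattern, with peaks after morphine only, was found at none of the 59. Counted in either direction, such a pattern held for 1.59% of all protein-coding genes. Fzd2 lost its BS because morphine replicate 2 had no peak there, while morphine replicate 1 had one. Wnt2 gained a BS because control replicate 2 had no peak, while control replicate 1 had one that ranked above 1.14% of its library. The other 10 genes had a peak in 1 or 2 libraries. Dkk2, Fzd7 and Lrp5 had one in morphine replicate 1 alone, Fzd8 and Lrp6 in morphine replicate 2 alone, Wnt16 in control replicate 1 alone, and Tcf7l1 in control replicate 2 alone. Sfrp4, Sfrp5 and Wnt5b had one in 1 library of each condition. At Wnt5b the peak of morphine replicate 2 began 91724 bp inside the gene, at a later start. Control replicate 2 had a peak there and another over the first start.

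Peaks and RNA levels are set side by side as a description. The 8 genes with a promoter peak in all 4 libraries had a median control level of 2.86 RPKM, and 6 of them were at or above 1 RPKM. Among the 38 genes with no promoter peak the median was 0.299 RPKM, with 16 at or above 1 RPKM and 12 below 0.1 RPKM. The 13 genes with a peak in 1 to 3 libraries had a median of 1.35 RPKM. Tcf7 (23.8 RPKM), Sfrp2 (12.3 RPKM) and Fzd10 (8.72 RPKM) were the most abundant genes with a peak in every library, and Rspo4 (0.0594 RPKM) was the least abundant. In Tcf7 and Fzd10 the peaks stopped short of the start, while in Sfrp2 they covered it in every library except control replicate 1. The barely expressed genes Wnt1, Wnt10b, Wnt4 and Sp5 had no promoter peak in any library, while Dkk2, Wnt2 and Wnt16, also below 0.1 RPKM, had one in 1, 3 and 1 libraries. Among the promoters, the ratio of observed to expected CpGs had a median of 0.856 at the 8 genes with a peak in every library, of 0.652 at the 13 with a peak in 1 to 3 libraries and of 0.749 at the 38 genes with none.

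**Figure D5:**
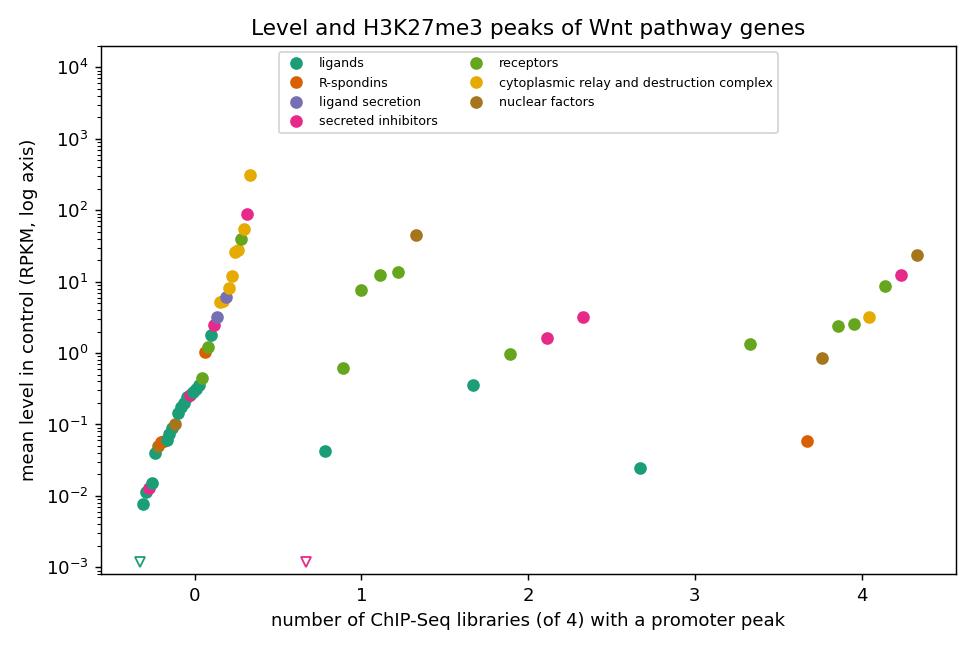
Mean control level of the 59 genes in RPKM on a log axis against the number of ChIP-Seq libraries with a promoter peak, coloured by role, with open triangles for genes at 0 and points spread sideways for clarity. Genes without a peak span the whole range from 0 to Ctnnb1 at 315 RPKM, and 6 of the 8 genes with a peak in all 4 libraries are at or above 1 RPKM.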

How the data were processed

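RNA-Seq and H3K27me3 ChIP-Seq were made from mESCs with and without morphine, 2 libraries per condition and assay. Per the study's methods and processing notes, the authors trimmed the reads (Trim Galore 0.6.2), aligned RNA reads with HISAT2 2.1.0 and assembled loci with StringTie 1.3.6, and deposited raw counts per locus from featureCounts 1.6.4. ChIP reads were aligned with Bowtie2 2.3.5.1 to mm10, and the peaks called by the authors with MACS in each library were deposited with a score of 10 times the negative log10 of the p-value, all at 50 or more. The control library used for peak calling and the strand setting of the counting are not given in the sources used here.

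The counts were tested with edgeR 4.0.16 (R 4.3.3), using the quasi-likelihood test with TMM scaling, the default filter on low counts (0.358 CPM in at least 2 libraries) and Benjamini-Hochberg adjustment over all tested loci, with calls at an FDR of 0.05. The trends with exon length and GC content were splines with 5 degrees of freedom fitted in each library. RPKM uses the exon length of the locus. The fit was tested on simulated data. Promoters reached 1 kb either side of any start in GENCODE vM21 (basic set), and replicate peaks overlapping by 1 bp formed a BS. Peaks were described and not tested, since the smallest two-sided exact permutation p of 2 against 2 is 0.33. Alternatives were the edgeR exact and likelihood ratio tests, DESeq2 1.42.0, other scalings, no filter, a replicate block, trend removal, leaving out each library, a score of 100, and other promoter rules. Values per library are given for called genes, the 15 tested genes with the highest mean CPM, the 10 with the largest absolute log2 fold change, those with peaks in both libraries of 1 condition only, and Ctnnb1, Axin2, Lef1, Sp5 and Tcf7l1. Other genes were added after their values were seen. The genes and lists were chosen with earlier results of these data known.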

Additional observations from a re-analysis of the deposited data

How the results depend on the processing

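With 2 libraries per condition, the number of Wnt pathway genes called was 0 in the edgeR quasi-likelihood test, 1 in DESeq2 (Sfrp1, with an adjusted p for 14 of the 42 genes), 3 without the count filter (Wnt6, Sfrp1 and Porcn) and 0 to 3 when each library was left out, with 3 without control replicate 2 (Dvl2, Gsk3b and Sfrp1). Leaving out 1 library assumes that the lone library of a condition varies like the other condition. Over all loci, 309 were called, against 790 in the exact test, 840 in the likelihood ratio test, 652 in DESeq2, 515 with total count scaling, 1657 without a filter, 115 with the length trend removed, 77 with both trends removed, 13 without morphine replicate 1, 1619 without control replicate 2 and 604 without morphine replicate 2. The median log2 fold change of the tested genes was -0.012 with both trends removed and 0.025 to 0.057 when each library was left out. With both trends removed, Axin1 came to -0.051, Axin2 to -0.023, Fzd7 to -0.045, Gsk3a to -0.0066, Tcf7 to -0.015 and Tcf7l1 to -0.14, all with the opposite sign. Tcf7l1 came to -0.0044 with the length trend removed and ran from -0.017 to 0.057 when each library was left out, and Wnt8a ran from -0.023 (without control replicate 2) to 1.49. Other genes kept their sign but varied in size over the alternatives. Tcf7l2 ran from -0.55 to -0.15, Wnt3a from 0.16 to 0.60 and Fzd5 from -0.19 to -0.05. The cause was not tested. Of 406 log2 fold changes of 29 genes under the alternatives, 356 kept their direction and their side of the threshold, 12 had no adjusted p in DESeq2, 9 passed it only under the alternative, 13 no longer passed it and 16 changed sign.

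The replicate numbers share no stated origin, and the replicate differences of the conditions had a correlation of 0.026 across loci. A replicate block called 0 of the genes and 1128 loci. The block with both trends removed called 2 (Fzd5 and Sfrp1) and 521 loci, with a median of -0.012, and gave Axin1 -0.051, Axin2 -0.022, Fzd7 -0.045, Gsk3a -0.0069, Tcf7 -0.015 and Tcf7l1 -0.14.

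At a score of at least 100, 8 and 9 genes in control and 9 and 9 after morphine had a promoter peak, and Fzd4 no longer had one in both control libraries. With the peak midpoint within 1 kb, the numbers were 5 and 7 in control and 7 and 7 after morphine, with a BS at 4 and 5 genes. With 1 replicate left out, the remaining one gave 12 to 14 genes in control and 13 to 14 after morphine. Peak lists without reads limit these counts to presence or absence.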
